A study of Mus musculus with 16 samples.

Results

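Maternal mRNA storage and polyadenylation factors were followed here through 10 genes chosen by name: *Cpeb1*, *Pabpc1l*, *Pabpn1l*, *Ybx2*, *Zar1*, *Zar1l*, *Patl2*, *Igf2bp2*, *Igf2bp3* and *Eif4e1b*. A named probe set was found for 7 of the 10, with 12 probe sets in all out of 45037 on the array, 6 of them for *Igf2bp3*. *Zar1l*, *Igf2bp2* and *Eif4e1b* were not analysed here. The arrays measured total RNA of mouse two-cell embryos in 4 groups with 4 arrays each. BBB embryos had B6 ooplasm and a B6 pronucleus from each parent, and BCB embryos differed from them by a C3H maternal pronucleus placed in the B6 ooplasm beside the B6 paternal one. Arrays of each kind came from untreated embryos or from embryos given α-amanitin, which the labels spell α-amantin and which blocks RNA polymerase II and so the making of new mRNA. All groups therefore shared B6 ooplasm. The dose, the hours of treatment and the number of embryos behind each array were not stated, and neither was the origin of the replicates, so each p-value speaks of the spread among these samples only, and that spread may be technical.

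A growing oocyte makes far more mRNA than it translates and keeps much of it silent, with a short poly(A) tail and packed into protein particles. At maturation and after fertilisation, sequence-specific binding proteins recruit a poly(A) polymerase that lengthens the tail of chosen messages, tail-binding and cap-binding proteins then set their translation, and most stored messages are destroyed as the embryonic genome switches on at the two-cell stage in the mouse. The arrays gave RNA levels only; tail length, translation and protein were not measured. In whole embryos, fewer cells and less RNA per cell cannot be told apart.

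With amanitin, 6 of the 7 measured genes gave a higher intensity than in untreated embryos of the same kind, in BBB and in BCB alike, and the seventh, *Zar1*, did not pass the test. The rises ran from 0.36 on the log2 scale for *Patl2* in both kinds to 1.79 for *Ybx2* in BBB and 1.64 in BCB. The test was limma's moderated test on log2(intensity + 16), with Benjamini-Hochberg adjusted p under 0.05 over 31953 probe sets; adding 16 makes the changes of dim probe sets look smaller than they are. The background was high: of 15274 genes tested, 37.1% were called higher and 33.1% lower with amanitin in BBB, and 39.9% higher and 31.9% lower in BCB. The median change of the 7 genes was 0.67 in BBB and 0.96 in BCB, beside 0.11 and 0.17 over all genes tested. All 4 amanitin arrays lay above all 4 untreated arrays for 5 of the 7 genes in BBB, where 33.9% of all genes did so, and for 5 of the 7 in BCB, where 35.6% did. None of the 7 lay wholly below in either kind, beside 30.7% of all genes in BBB and 29.7% in BCB.

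**Figure D1:**
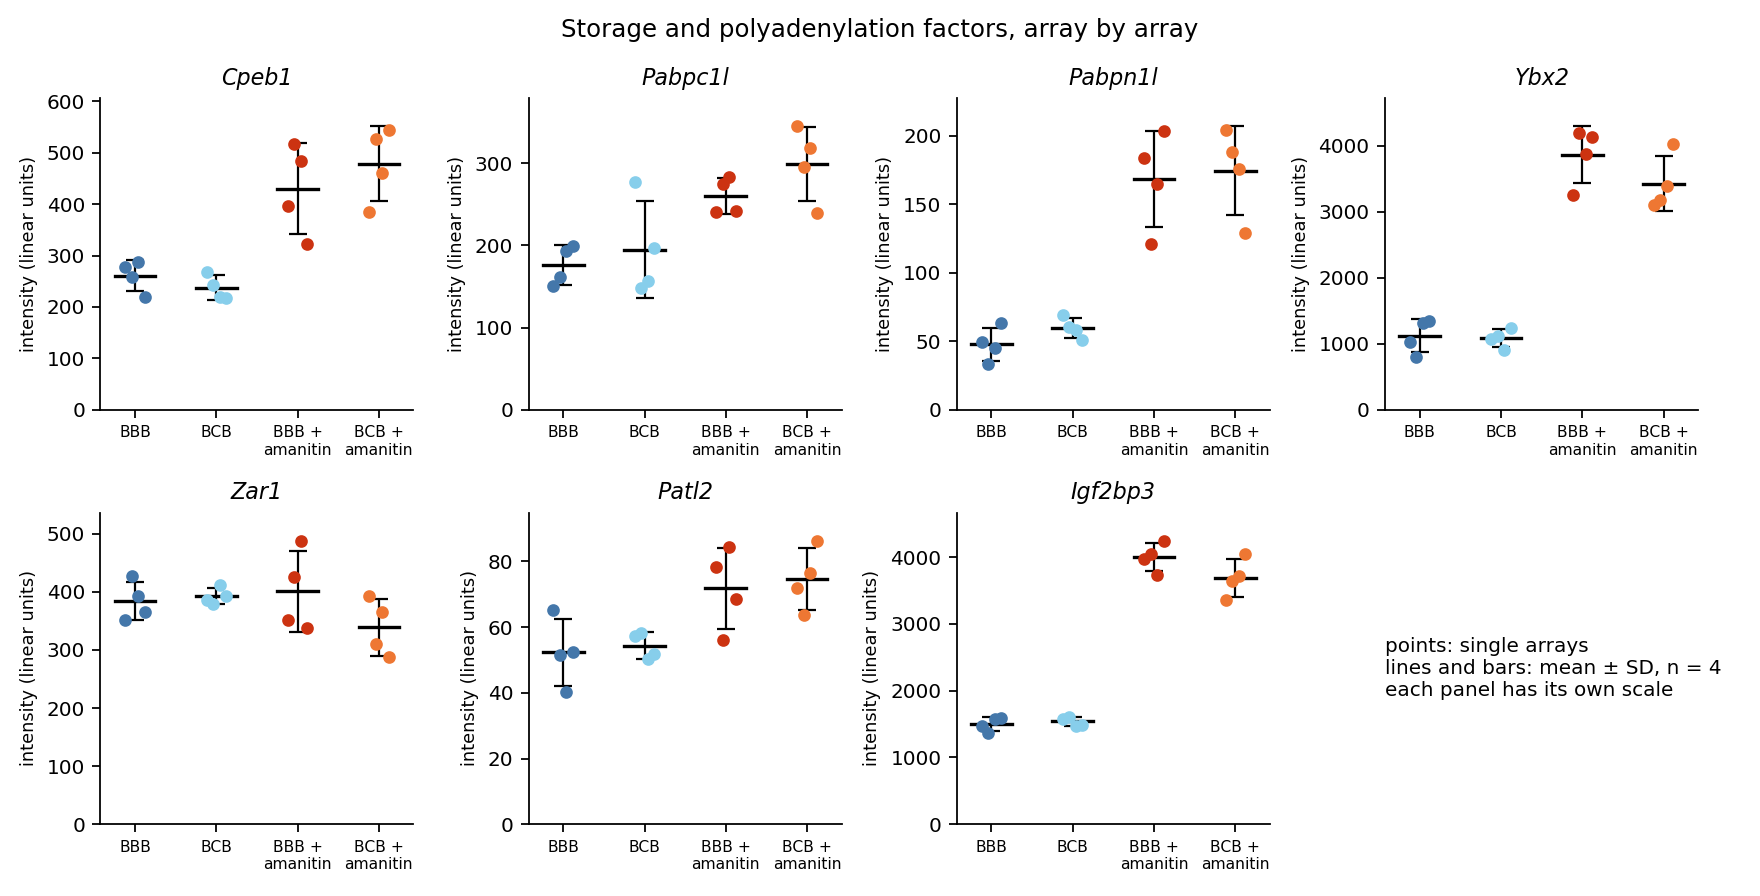
Deposited intensity (linear units, each panel with its own scale from 0) of the 7 measured genes on each array, with the mean and SD of 4 arrays per group. On this scale the amanitin arrays of *Ybx2*, *Pabpn1l*, *Igf2bp3* and *Cpeb1* stand clear of the untreated ones in both kinds, while those of *Zar1* overlap them; scaled to the poly-A controls, none of the 7 genes was higher.

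These directions belong to the deposited scale, on which the authors gave every array the same trimmed mean of 150.0. Control probe sets were brighter on every amanitin array than on every untreated one. The 9 hybridization control probe sets had log2 shifts of 0.51 (BBB) and 0.77 (BCB), and the 12 poly-A control probe sets of 1.78 and 1.81. The sources used here do not state when, or in what amount, these controls were added. Ribosomal 18S RNA, read by 3 probe sets, was likewise brighter on every amanitin array, by 1.26 and 1.62. Scaled to the hybridization controls, *Ybx2*, *Pabpn1l* and *Igf2bp3* were still called higher in both kinds and *Zar1* was called lower; over all genes 22% were then higher and 42.8% lower in BBB, and 15.3% and 47.9% in BCB. Scaled to the poly-A controls, no member was higher and 5 of 7 were lower in each kind. Most genes were lower on that scale, with 84.3% called lower and 0.812% higher in BBB and 84% and 0.655% in BCB, and the median of all genes itself was -1.23 in BBB and -1.21 in BCB. A change relative to that median depends less on the scaling: *Ybx2* stood 1.68 above the median gene in BBB on the deposited scale and 1.09 above it on the poly-A scale, and *Pabpn1l* 1.42 and 1.13. *Igf2bp3* stood 1.29 above the median gene in BBB on the deposited scale and 0.70 on the poly-A scale. *Zar1* lay at -0.39 relative to the median gene in BCB on the deposited scale and at -0.89 on the poly-A scale. *Pabpc1l* moved from 0.41 above the median gene in BBB to -0.051 relative to it.

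**Figure D2:**
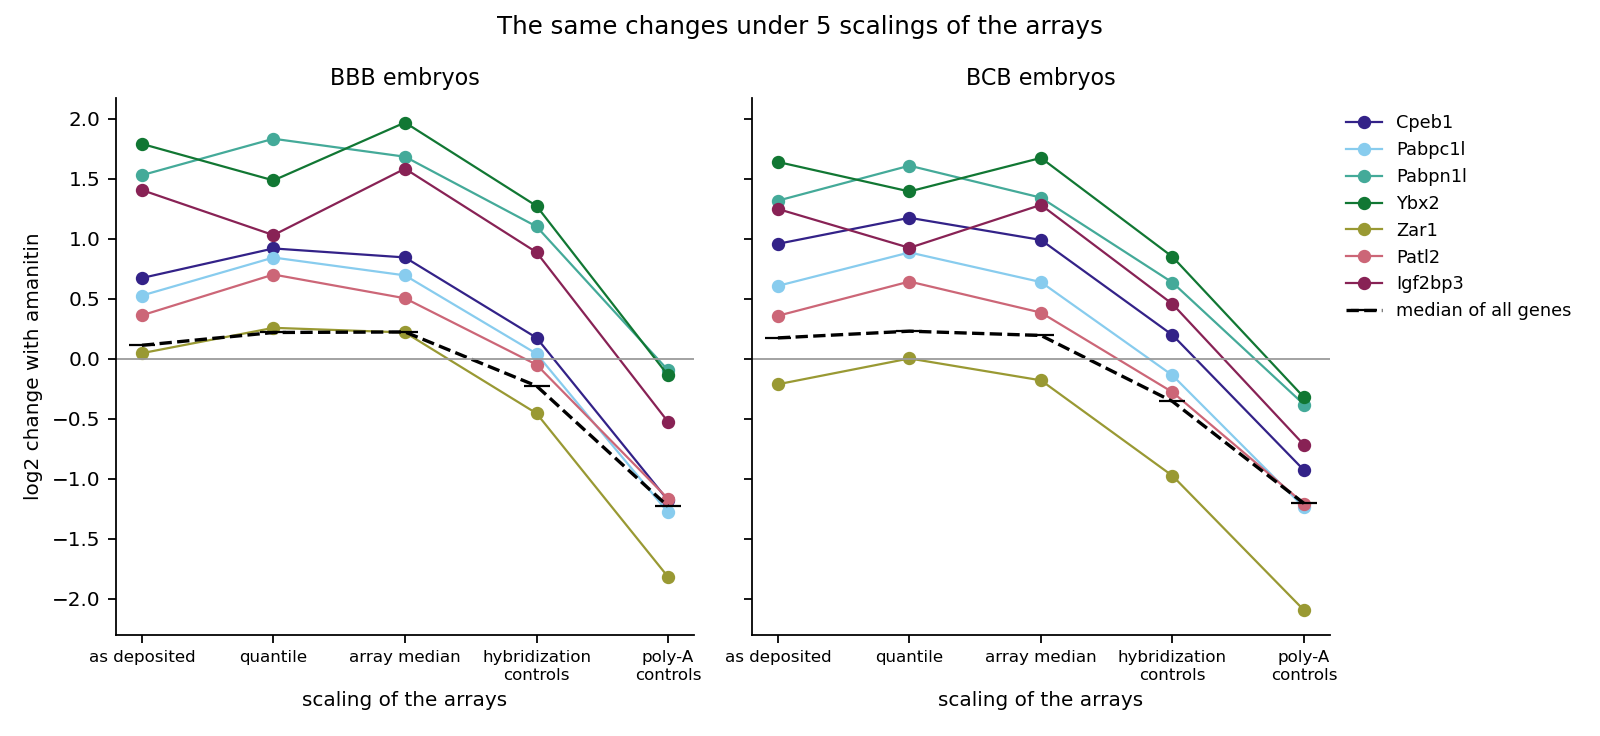
Change with amanitin (log2, vertical axis) of the 7 genes under 5 scalings of the arrays, in BBB and in BCB embryos, with the median of all 15274 genes as a dashed line. *Ybx2*, *Pabpn1l*, *Igf2bp3* and *Cpeb1* stay above the dashed line under all 5 scalings, *Cpeb1* by only 0.050 in BBB on the poly-A scale. Every one of the 7 genes lies below 0 on the poly-A scale.

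The labelled stage could be checked against its markers on the untreated arrays. On BBB arrays *Zfp352* and *Pramel7*, the only 2 tested of 7 two-cell markers listed, summed to between 6850 and 8017 intensity units. On BCB arrays they summed to between 7033 and 7576, and to at most 323 on any amanitin array. With amanitin they therefore gave no check of the stage. The summed intensity of 7 oocyte markers moved with the members on the deposited scale. It was 10236 to 12485 in BBB and 10786 to 11807 in BCB, and 21745 to 23285 and 20291 to 21879 with amanitin. On that scale 6 of the 7 were called higher in each kind, beside 37.1% (BBB) and 39.9% (BCB) of all genes. On the poly-A scale in BBB *Bmp15*, *Nlrp5*, *Ooep* and *Oosp1* were at -0.48, -0.51, -0.80 and -1.52, and *Zp1* and *Zp3* were also negative. *Zp2* alone was slightly positive in BBB, at 1.31 relative to a median gene of -1.23. On that relative measure *Bmp15*, *Nlrp5*, *Zp1* and *Ooep* were also above the median gene, at 0.75, 0.72, 0.67 and 0.43. *Oosp1* and *Zp3* were below it, at -0.29 and -0.65. In BCB *Zp2* was negative on the poly-A scale, at 0.96 relative to a median gene of -1.21. Of 18 cumulus and granulosa cell markers, 11 were tested, and without *Amhr2* the other 10 summed to 171 to 287 on untreated arrays and to 368 to 447 on amanitin arrays. *Amhr2* fell, with log2 changes of -4.84 and -5.01. The 6 sperm markers tested summed to 63.0 to 112 untreated and to 105 to 157 with amanitin. These sums over 10 and 6 probe sets are low: the median single probe set read 17 to 21.6 on the arrays. Their rises are on the deposited scale. The part that these shifts, or the brighter controls, have in the members' changes was not tested.

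*Ybx2* had the largest change of the 7 members on the deposited scale. It encodes the germ cell Y-box protein MSY2, an abundant cold shock domain protein that coats and stabilises maternal mRNA in growing oocytes. Its intensities were 1029, 808, 1310.0 and 1342 on the BBB arrays and 1075, 1124, 909 and 1246 on the BCB arrays. With amanitin they were 3261, 4196, 3869.5 and 4135 in BBB, and 3105, 3178, 3394 and 4021 in BCB. The lowest amanitin array lay well above the highest untreated array in both kinds, so the groups did not overlap. The ratio of mean intensities was 3.44 in BBB and 3.15 in BCB. The log2 change was 1.79 ± 0.13 (SE) in BBB, with a limma adjusted p of 1.87e-11, and 1.64 ± 0.13 in BCB, with 9.25e-11. In BBB 97.3% of all genes tested had a lower change than *Ybx2*, and in BCB 96.2%. The 3 genes whose log2 levels followed *Ybx2* most closely over the 16 arrays were *Pigf*, *Dab2* and *Knstrn*, each with a Pearson r of 0.994, a description over arrays that share the amanitin shift.

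*Zar1* encodes the zygote arrest 1 protein, an RNA-binding protein of oocytes that the mother must supply for the first cleavage divisions. Its intensities were 352, 427, 392 and 365 in BBB and 386, 379, 412 and 392 in BCB. With amanitin they were 352, 425, 488 and 338 in BBB, and 393, 309.6, 365 and 288 in BCB. Treated and untreated arrays overlapped in both kinds. The log2 change was 0.047 in BBB, with a 95% interval of -0.21 to 0.30 and a limma adjusted p of 0.751. It was -0.21 in BCB, with an interval of -0.47 to 0.043 and an adjusted p of 0.131. These intervals leave out rises of the size seen for *Ybx2* or *Igf2bp3* on the deposited scale. Scaled to the hybridization controls, *Zar1* was called lower, at -0.45 in BBB and -0.98 in BCB.

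*Patl2* encodes an oocyte member of the Pat1 family, RNA-binding proteins that repress translation of stored messages. Its bases upstream of the first listed start are shown because oocyte genes are often described as controlled through E-boxes, the CANNTG motif bound by the oocyte factor FIGLA; capitals mark the motif. The window, chr2:122186190-122186439 on the minus strand, comes from RefSeq on GRCm38.p6, lies outside the RefSeq models of the gene, and reads 5′ to 3′ along the gene:
Patl2: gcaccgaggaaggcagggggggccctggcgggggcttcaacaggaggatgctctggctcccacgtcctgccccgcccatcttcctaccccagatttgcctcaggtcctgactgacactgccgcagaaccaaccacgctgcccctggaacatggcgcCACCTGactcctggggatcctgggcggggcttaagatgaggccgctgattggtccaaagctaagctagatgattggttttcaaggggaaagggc
The motif is common. CANNTG, which reads the same on both strands, was present in the 250 bases upstream of 8 of the 9 members with a listed start and in 66.2% of 32851 mouse promoters of that length. TAATTG, the motif of the oocyte factor NOBOX, searched on both strands, was in the windows of *Zar1l* and *Igf2bp3* and in 7.2% of all promoters. TATAAA, likewise on both strands, was in that of *Cpeb1* and in 12.4% of all promoters. A match is a description of the letters and not a measured site.

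*Patl2* was dim. Its intensities were 65.1, 51.4, 40.3 and 52.4 in BBB and 57.2, 58.3, 50.3 and 51.7 in BCB, with amanitin 78.2, 56.0, 84.4 and 68.5 in BBB and 71.8, 63.6, 76.4 and 86.2 in BCB. The amanitin arrays overlapped the untreated ones in BBB and stood above them in BCB. The log2 change was 0.36 ± 0.15 in both kinds, with limma adjusted p of 0.0373 (BBB) and 0.0385 (BCB). This call was close to the threshold in both kinds. In BBB it was lost without untreated array 2, 3 or 4 or amanitin array 1 or 3, with adjusted p between 0.0598 and 0.135, and in BCB without untreated array 1, 3 or 4 or amanitin array 1, 3 or 4, with adjusted p between 0.0512 and 0.105. Of all genes tested, 61.9% in BBB and 58.9% in BCB had a lower change than *Patl2*.

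*Igf2bp3* encodes an insulin-like growth factor 2 mRNA-binding protein that binds many messages and protects them from decay. Of its 6 probe sets, 5 were called higher with amanitin and 1 lower, in each kind; over all probe sets tested, 34.3% were called higher and 31.9% lower in BBB, and 37.6% and 30.3% in BCB. Probe set 1422610_s_at, the brightest, read 1473, 1359.8, 1574 and 1596 in BBB and 1579, 1612, 1477 and 1493 in BCB. With amanitin it read 3977, 4051, 3735 and 4243 in BBB, and 3351, 3649, 3714 and 4039.7 in BCB. The groups did not overlap. Its log2 change was 1.41 ± 0.074 in BBB, with a limma adjusted p of 5.27e-14, and 1.25 ± 0.074 in BCB, with 4.53e-13. The 4 other rising probe sets changed by 1.03 to 1.22 in BBB and by 1.01 to 1.41 in BCB.

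The sixth probe set moved the other way. Probe set 1453957_a_at read 120.1, 99.6, 119 and 135 in BBB and 135, 146, 139 and 120.2 in BCB, and with amanitin 52.0, 66.2, 50.7 and 43.0 in BBB and 53.6, 79.6, 54.7 and 50.8 in BCB. No amanitin array reached the lowest untreated one. It fell, with a log2 change of -0.97 in BBB and a limma adjusted p of 4.06e-06, and of -1.01 in BCB, with 2.16e-06, and it was lower under each of the 5 scalings. On the same array, probe set 1422610_s_at gained on 1453957_a_at by 2.37 ± 0.12 log2 units (SE, n = 4 against 4) in BBB and by 2.26 ± 0.15 in BCB. The size of this shift depended on the scaling: over the 5 scalings it ran from 1.63 to 2.41 in BBB and from 1.62 to 2.26 in BCB, lowest after quantile normalization. The sources used here do not say which transcript each probe set detects. The 2 probe sets were compared after their values were seen, so no test was made.

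**Figure D3:**
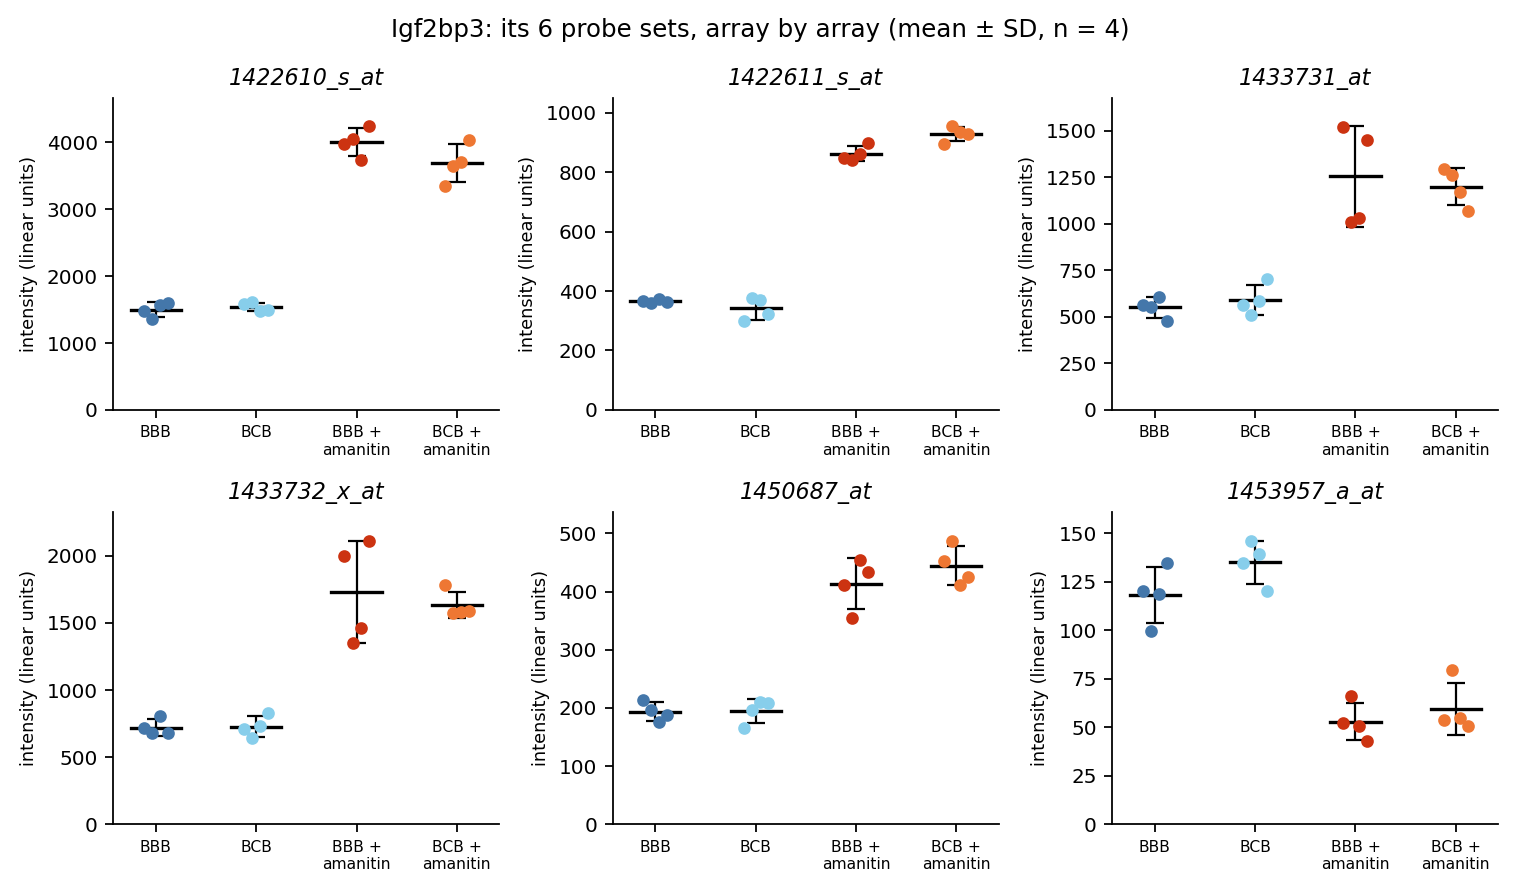
Deposited intensity (linear units, each panel with its own scale from 0) of the 6 *Igf2bp3* probe sets on each array, with the mean and SD of 4 arrays per group. On this scale 5 probe sets are higher with amanitin without overlap and 1453957_a_at is lower without overlap; scaled to the poly-A controls, all 6 changes are negative.

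On the deposited scale the poly(A)-binding members *Pabpn1l* and *Pabpc1l* rose by different amounts. Both were negative on the poly-A scale in both kinds, where *Pabpn1l* did not pass the test. *Pabpn1l* encodes an embryonic nuclear-type poly(A)-binding protein that takes part in the clearance of maternal mRNA. Its upstream window, chr8:122622736-122622985 on the minus strand, holds 4 CANNTG matches, the most among the members, and is shown for that reason, with the motif in capitals and from the same RefSeq table on GRCm38.p6:
Pabpn1l: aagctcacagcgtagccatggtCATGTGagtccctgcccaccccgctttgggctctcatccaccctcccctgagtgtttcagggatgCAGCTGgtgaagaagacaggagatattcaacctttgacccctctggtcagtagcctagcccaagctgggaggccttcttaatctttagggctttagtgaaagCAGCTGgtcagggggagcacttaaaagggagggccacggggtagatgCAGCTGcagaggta
Its intensities were 49.6, 33.4, 45.0 and 63.2 in BBB and 69.2, 60.3, 58.2 and 51.3 in BCB. With amanitin they were 184, 121, 165 and 204 in BBB, and 205, 188, 176 and 129 in BCB. Every amanitin array lay above every untreated array of the same kind. The log2 change was 1.53 ± 0.17 in BBB, with a limma adjusted p of 3.28e-08, and 1.32 ± 0.17 in BCB, with 3.60e-07; the ratios of mean intensities were 3.52 and 2.92. Being dim, this probe set loses more of its change to the added 16 than *Ybx2* does.

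*Pabpc1l*, the gene of the embryonic cytoplasmic poly(A)-binding protein that protects lengthened tails in oocytes, read 150.3, 162, 193 and 199 in BBB and 277, 148, 157 and 197 in BCB. With amanitin it read 241, 274, 283 and 242 in BBB, and 344, 295, 319 and 239 in BCB. The groups did not overlap in BBB; in BCB untreated array 1, at 277, lay above amanitin array 4, at 239. The log2 change was 0.53 ± 0.16 in BBB, with a limma adjusted p of 0.00540, and 0.61 ± 0.16 in BCB, with 0.00169. Scaled to the hybridization controls, the change was 0.042 in BBB and -0.14 in BCB, and neither passed the test.

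*Cpeb1* encodes the protein that binds the cytoplasmic polyadenylation element of dormant messages, holding them silent and later recruiting the polyadenylation machinery. It read 277, 258, 288 and 220.3 in BBB and 269, 244, 220.1 and 217 in BCB. With amanitin it read 397, 518, 485 and 322 in BBB, and 385, 526, 461 and 543 in BCB. The amanitin arrays stood above the untreated ones in both kinds, and those of BBB were spread from 322 to 518. The log2 change was 0.67 ± 0.14 in BBB, with a limma adjusted p of 0.000206, and 0.96 ± 0.14 in BCB, with 2.29e-06. Scaled to the hybridization controls it was 0.18 and 0.20, with adjusted p of 0.365 and 0.307.

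No difference between embryos with a C3H and a B6 maternal pronucleus was detected for these genes. Between untreated BCB and BBB embryos 0 of the 7 members passed limma's test, and 0 had an unadjusted p under 0.05; of all genes 0.386% were called higher and 0.268% lower. The changes, BCB minus BBB, ran from -0.13 for *Cpeb1* to 0.26 for *Pabpn1l*, whose 95% interval was -0.093 to 0.62. With amanitin they ran from -0.23 for *Zar1* to 0.18 for *Pabpc1l*, again with 0 of 7 called and 0 at an unadjusted p under 0.05, beside 0.0393% of genes called in each direction. The interaction, the amanitin change in BCB minus that in BBB, was called for 0 members, with 0 at an unadjusted p under 0.05, beside 0.0655% of genes called higher and 0.19% lower. It was 0.28 for *Cpeb1*, with an interval of -0.13 to 0.70, and -0.26 for *Zar1*, with -0.62 to 0.10. A difference of up to 0.62 in untreated *Pabpn1l* therefore lies within the error of 4 arrays against 4. The comparison of untreated kinds and the amanitin comparison in BBB share the untreated BBB arrays, and the other contrasts share arrays in the same way.

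Each member could also be set against another gene of its family on the same array, a difference that cancels any factor common to the array apart from the added 16. The pairs were chosen with earlier results of these data known. Of 8 pairs planned, 5 had both genes measured. In 4 of the 5 the member gained on its relative with amanitin in both kinds, each with an exact two-sided permutation p of 0.0286, the smallest that 4 arrays against 4 can give, and 0.0357 after Benjamini-Hochberg adjustment over 10 tests. How many other gene pairs would reach this p was not tested, so the count of 4 has no background share. Many single genes separated fully on the deposited scale. With amanitin 33.9% lay wholly above and 30.7% wholly below the untreated arrays in BBB, and 35.6% and 29.7% in BCB. Levels of different probe sets cannot be compared, so only the shift of each difference is given.

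Among these pairs the widest shift was in the cytoplasmic poly(A)-binding pair. *Pabpc1*, the general form found in most cells, read 4696 to 5252 in BBB and 4586 to 4987 in BCB, and 417 to 589 and 379.5 to 557 with amanitin, at log2 changes of -3.20 and -3.31. *Pabpc1l* gained on *Pabpc1* by 3.72 log2 units in BBB, which is 13.2-fold, and by 3.92 in BCB, which is 15.2-fold. The other *Pabpc1* probe set, 1453840_at, also fell, with changes of -1.56 and -1.32. *Pabpn1l* gained on *Pabpn1*, the gene of the general nuclear poly(A)-binding protein, by 1.33 and 1.24. The *Pabpn1* probe sets disagreed: the brightest, 1422849_a_at, changed by 0.21 in BBB and 0.073 in BCB, and the other 3 fell, with changes of -0.40 to -2.32 in BBB and of -0.51 to -1.92 in BCB.

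*Ybx2* gained on *Ybx1*, the somatic Y-box gene, by 0.67 in BBB and 0.62 in BCB, although *Ybx1* itself rose on the deposited scale, by 1.12 and 1.02; on the poly-A scale *Ybx1* was at -0.82 and -0.95. A dimmer *Ybx1* probe set, 1438064_at, fell, with changes of -1.35 and -0.85. *Cpeb1* gained on *Cpeb4*, a further binder of the polyadenylation element, by 0.63 in BBB and 0.96 in BCB. The *Cpeb4* probe set read here overlapped between treated and untreated arrays, and another, 1420617_at, fell, with changes of -0.72 and -0.87. Averaging a gene's probe sets took the *Ybx2* shift to 1.90 in BBB and 1.45 in BCB, that of *Pabpn1l* to 2.31 and 2.05, and that of *Cpeb1* to 0.98 and 1.23. It shrank the shift of *Pabpc1l* over *Pabpc1* to 2.91 in BBB and 2.93 in BCB. The *Ybx1* average also took in a very dim probe set, 1430720_at, which read 4.2 to 23.2 over the 16 arrays. The shift of *Patl2* over *Patl1* did not pass the test: it was -0.11 in BBB, with an exact permutation p of 0.629, and -0.17 in BCB, with 0.257. Leaving out BBB array 2 took the *Ybx2* and *Cpeb1* pairs in BBB to an adjusted exact p of 0.0714, and the *Cpeb1* pair stood at 0.0714 without any 1 of the 4 untreated BBB arrays.

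*Igf2bp3* had no planned partner on the array, and *Igf2bp1*, its relative, was set beside it after the values were seen. *Igf2bp1* read 456 to 533 in BBB and 409 to 487 in BCB, and 15.5 to 66.0 and 4.2 to 40.8 with amanitin, with log2 changes of -3.22 and -3.72. With amanitin the probe set was dim: the median of all probe sets on the same arrays was 17 to 18.8 in BBB and 18.5 to 21.6 in BCB, and no ratio to *Igf2bp3* is given. The 2 genes of the family thus moved in opposite directions on the deposited scale; on the poly-A scale both were lower, at -0.53 and -4.78 in BBB.

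**Figure D4:**
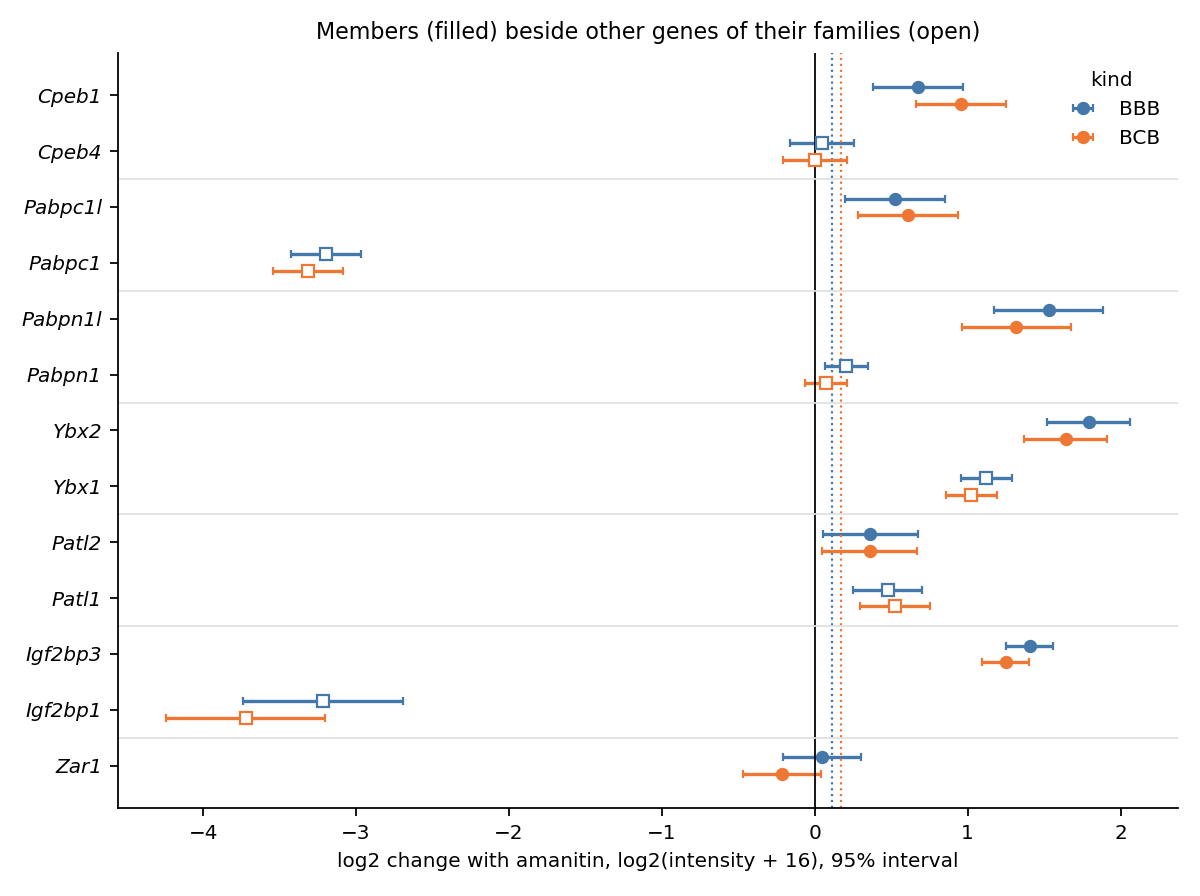
Change with amanitin (log2 of intensity + 16, horizontal axis, 95% intervals) of the members (filled) and of a relative of each except *Zar1* (open). BBB and BCB embryos are shown, with dotted lines at the median of all genes. On the deposited scale *Pabpc1* and *Igf2bp1* fall, at -3.20 and -3.22 in BBB, while *Pabpc1l* and *Igf2bp3* rise; on the poly-A scale *Pabpc1l* and *Igf2bp3* are negative too.

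On the deposited scale the wider machinery did not move in a single direction, while on the poly-A scale most tested genes of each list were lower. Across the 5 companion lists that follow, scaling to the hybridization controls left 6 of 26, 3 of 8, 10 of 26, 2 of 7 and 6 of 16 genes higher and 18, 4, 10, 4 and 6 lower in BBB, beside the 22% and 42.8% of all genes. In BCB 0, 2, 7, 0 and 3 were higher and 18, 4, 12, 5 and 7 lower, beside 15.3% and 47.9%. The counts on the poly-A scale given with each list stand beside 84.3% (BBB) and 84% (BCB) of all genes called lower there. The counts on the deposited scale stand beside 37.1% of all genes higher and 33.1% lower in BBB, and 39.9% and 31.9% in BCB. The medians of the lists stand beside 0.11 (BBB) and 0.17 (BCB) over all genes. Of 26 genes of cleavage, polyadenylation and tail trimming, all tested, 8 were higher and 14 lower in each kind, with a median change of -0.51 in BBB and -0.65 in BCB; on the poly-A scale all 26 were lower. *Tent4a*, a non-canonical poly(A) polymerase, had the smallest p among the risers: its intensity was 3251 ± 207 (SD, n = 4) in BBB and 6285 ± 436 with amanitin, a log2 change of 0.95, and 0.89 in BCB. *Cstf2t*, a subunit of the cleavage stimulation factor, went from 2039.6 ± 82.5 to 45.1 ± 11.2 in BBB, a change of -5.09, and by -5.52 in BCB. Chosen after their values were seen, *Papola*, the main nuclear poly(A) polymerase, changed by -3.01 and -2.99, and *Tent2*, the cytoplasmic poly(A) polymerase GLD-2 that works with CPEB1, by 0.89 and 0.78. Among the relatives of *Cpeb1*, also named after seeing them, *Cpeb2* fell, with changes of -1.15 in BBB and -1.92 in BCB, and *Cpeb3* changed by 1.02 in both; on the poly-A scale *Cpeb3* was at -0.78 and -0.79.

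Of 10 further poly(A)-binding genes and their partners 8 were tested, and 5 were higher and 2 lower in BBB, 4 higher and 3 lower in BCB, with medians of 0.47 and 0.38; on the poly-A scale all 8 were lower. *Paip2b*, which holds poly(A)-binding proteins off the tail, rose from 2547 ± 258 to 6604 ± 479 in BBB, by 1.37, and by 1.29 in BCB. On the poly-A scale its change was -0.56 and -0.68. *Pabpc1*, given above, had the smallest p among those that fell.

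Of 27 storage particle genes 26 were tested, with 13 higher and 8 lower in each kind and medians of 0.38 and 0.35; on the poly-A scale 1 was higher in BBB and 2 in BCB, and 24 were lower in each. *Stau2*, a double-stranded RNA-binding protein that transports messages, read 262 ± 49.2 in BBB and 1935 ± 342 with amanitin, a log2 change of 2.81, and 2.54 in BCB. It was called higher under all 5 scalings, at 0.92 in BBB and 0.63 in BCB on the poly-A scale. *Msi2*, a Musashi RNA-binding protein named after its values were seen, changed by 2.09 and 2.44 on the deposited scale and by 0.29 and 0.63 on the poly-A scale, where the BBB change did not pass the test. *Dazl*, a germ cell activator of translation, rose by 1.43 and 1.48, and *Lsm14a*, a particle component, by 0.95 and 0.93; both were negative on the poly-A scale. *Syncrip*, an RNA-binding protein common in somatic cells, went from 2002 ± 125 to 61.5 ± 25.2 in BBB, a change of -4.76, and by -4.83 in BCB.

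Of 9 cap-binding genes and partners 7 were tested, with 3 higher and 3 lower in each kind and medians of 0.078 and 0.21; on the poly-A scale all 7 were lower. *Eif4e3*, a relative of the cap-binding protein, changed by 1.0 and 0.90, and *Eif4g2*, a translation factor, by 0.36 and 0.37. *Eif4ebp1*, whose protein binds the cap-binding protein and represses translation, changed by -1.99 and -1.82. *Eif4e*, the somatic relative of *Eif4e1b*, had probe sets that disagreed: 1450908_at changed by -0.49 in BBB, while 1423220_at and 1450909_at changed by 0.95 and 1.17, and the dimmest, 1444010_at, fell, with changes of -2.06 in BBB and -1.97 in BCB.

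Of 17 messages that earlier work describes as stored and later polyadenylated or as needed for maternal clearance, 16 were tested, with 10 higher and 5 lower in BBB, 9 higher and 5 lower in BCB, and medians of 0.71 and 0.58; on the poly-A scale none was higher and 15 were lower in each kind. *Cnot6l* and *Cnot7*, deadenylase subunits, changed by 1.12 and 0.84 in BBB and by 1.08 and 0.77 in BCB, and on the poly-A scale by -0.82 and -1.10 in BBB. *Aurka*, a mitotic kinase, read 1412 ± 47.9 in BBB and 201 ± 16.4 with amanitin, a change of -2.72, and changed by -2.90 in BCB. Named after their values were seen, *Plat* and *Mos*, stored messages known to be polyadenylated at oocyte maturation, changed by 1.22 and 0.94 in BBB, and *Tpx2* by -2.75. In the 5 lists, 0 of the tested genes passed the test between BCB and BBB, untreated or with amanitin, or in the interaction; at an unadjusted p under 0.05, in the order of these 3 comparisons, the cleavage and polyadenylation list had 2, 3 and 3 genes, the poly(A)-binding list 1, 1 and 0, the storage particle list 2, 3 and 1, the cap-binding list none, and the stored messages 1, 1 and 1.

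**Figure D5:**
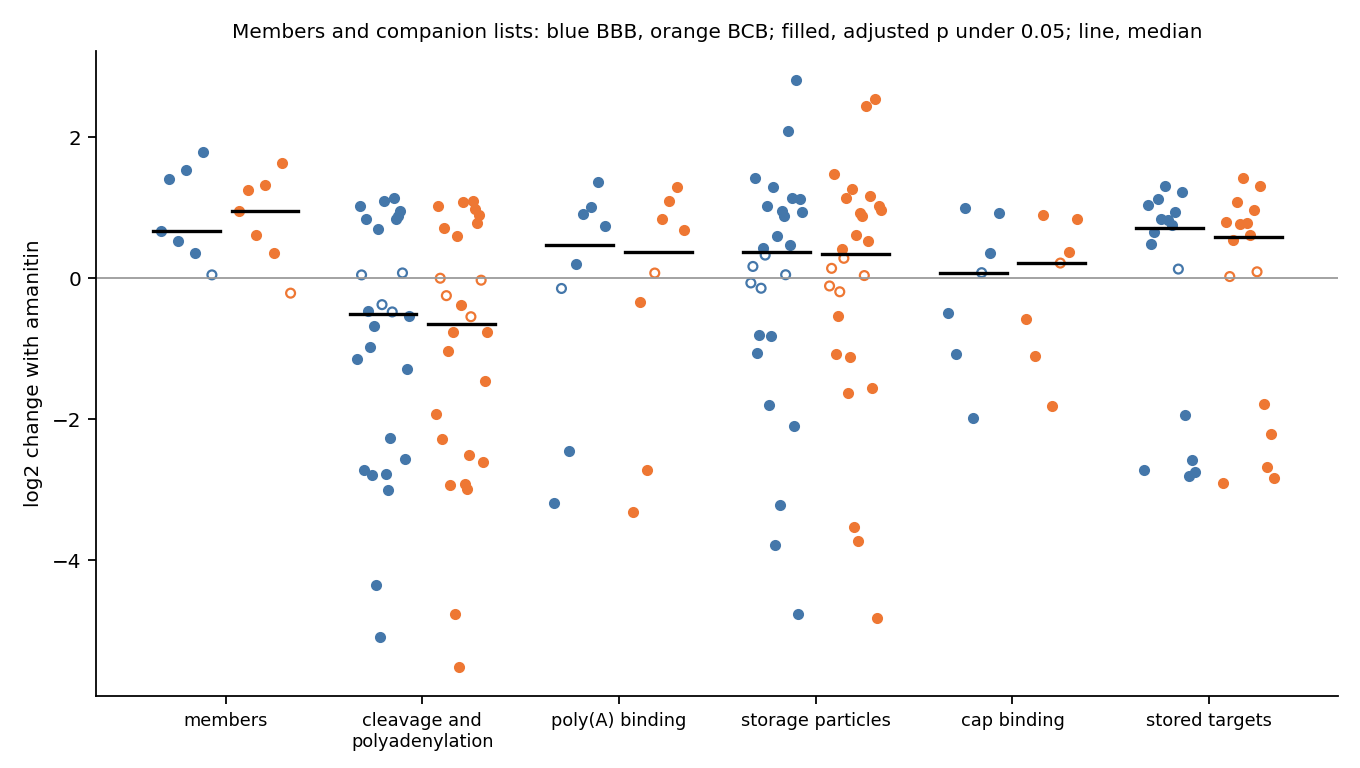
Change with amanitin (log2, vertical axis) of each tested gene of the member group and of 5 companion lists, in BBB (blue) and BCB (orange), filled where the limma adjusted p was under 0.05, with a line at each median. On the deposited scale 6 of 7 members lie above 0 and passed the test, while the 26 cleavage and polyadenylation genes split into 8 higher and 14 lower. Of all genes tested, 37.1% were called higher and 33.1% lower in BBB on that scale, and 39.9% and 31.9% in BCB. On the poly-A scale no member and none of the 26 was higher.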

How the data were processed

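RNA was prepared with a Picopure kit, and an ENZO kit added the biotin label, per the labels. The deposited values were linear intensities, which the authors had scaled to a 2% trimmed mean of 150.0 on each of the 16 arrays. The software, the background correction and the genome build are not stated in the sources used here. Probe sets were named from the platform annotation: 34945 had 1 gene symbol, 932 several and 9160 none. Values were taken as log2(intensity + 16). Probe sets at or above the 40th percentile of the array on 4 or more of the 16 arrays were tested, 31953 in all for 15274 genes, and all 12 member probe sets passed. The number of arrays limits the precision. Where several probe sets of a gene passed, the one with the highest mean over the arrays stood for the gene. A single model with 4 group means and 5 contrasts was fitted to all arrays in limma 3.58.1 (R 4.3.3), with an intensity trend. Pairs of genes were compared by exact permutation over arrays.

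The members, lists and tests were chosen with earlier results of these data known. Named were the members, their pair partners and, in each list, the strongest call (by adjusted p) upward and downward and the gene of highest mean; other names were chosen after their values were seen. The alternatives were 4 other scalings, pseudocounts of 1 and 64, no filter or a filter at the 60th percentile, averaging a gene's probe sets, fitting the compared groups alone, a replicate block, no intensity trend and leaving out each array. No 2 arrays held identical values, and correlations within groups were 0.976 to 0.990. The labels give no batch. Replicate numbers did not pair the arrays: the correlation of deviations from group means was -0.087 to 0.107 over 24 pairs of the same number.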

Additional observations from a re-analysis of the deposited data

Results flagged for a closer look

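In 48 groups of 4 arrays (12 member probe sets in 4 groups), 2 held an array whose gap to the nearest of the other 3, divided by the group's range, was above Dixon's 95% critical value; chance gives about 1 in 20 groups. Both were *Igf2bp3* probe sets in BCB embryos with amanitin. Probe set 1433732_x_at read 1782 on array 1 and 1576 to 1590.5 on the others, a ratio of 0.929. Probe set 1453957_a_at read 79.6 on array 2 and 50.8 to 54.7 on the others, a ratio of 0.865; this is the probe set that fell with amanitin, and array 2 still lay below every untreated BCB array.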

How the results depend on the processing

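The scaling decided most directions. Scaled to the hybridization controls, 3 members were higher and 1 lower in each kind, and the changes that turned were *Zar1* at -0.45 and *Patl2* at -0.049 in BBB, and *Pabpc1l* at -0.14 and *Patl2* at -0.28 in BCB. Scaled to the poly-A controls, 0 were higher and 5 lower in each kind. In BBB the changes were then *Cpeb1* -1.18, *Pabpc1l* -1.28, *Pabpn1l* -0.095, *Ybx2* -0.14, *Zar1* -1.82, *Patl2* -1.17 and *Igf2bp3* -0.53. In BCB they were *Cpeb1* -0.93, *Pabpc1l* -1.24, *Pabpn1l* -0.38, *Ybx2* -0.32, *Zar1* -2.10, *Patl2* -1.21 and *Igf2bp3* -0.72. Quantile normalization, centring on the median, the pseudocounts, the filters, the mean of probe sets and no intensity trend kept the counts of members within 1.5 times. Leaving out each array gave 5 to 6 members higher in BBB and in BCB, 0 to 0 in the other counts of members, and 2 to 4 pairs changed in BBB and 4 to 4 in BCB; the low of 2 was without BBB array 2. With only the groups compared, *Patl2* in BBB missed the threshold (limma adjusted p 0.0681). With a pseudocount of 64 the *Patl2* over *Patl1* ratio in BCB passed it, at -0.27 with an adjusted exact p of 0.0317. With the replicate number as a block, 6 members were higher in BBB and 6 in BCB, and 4 of 16 arrays correlated best with an array of their own number. The pairs *Zar1* with *Zar1l*, *Igf2bp2* with *Igf2bp3* and *Eif4e1b* with *Eif4e* could not be computed. Dim probe sets such as *Patl2* limit the changes that 4 arrays can show.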
